A study of Mus musculus with 6 samples.

Results

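The cytosolic heat shock proteins and their cochaperones were followed across 1 comparison, that of HT22 cells exposed to AA147 with HT22 cells given vehicle. Members were chosen by a rule on gene symbols, with earlier results of these data known. It took the HSP70, HSP110, HSP90 and small heat shock protein genes, the J-domain (Dnaj) genes, the Bag genes and the CCT ring. The heat shock factors and a few named cochaperones were included, without the main chaperones of the endoplasmic reticulum and mitochondria. The rule found 73 of the 16472 genes listed. That rule is wider than its name, since at least 15 of the 33 J-domain members are known or thought to sit in mitochondria, the endoplasmic reticulum or other membranes. Hspb11 is a cilium transport protein by function.

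HT22 is an immortalised mouse hippocampal line, so all 6 libraries come from 1 line grown in culture. The AA147 group held 3 libraries from cells exposed for 16 h to AA147, a compound known to switch on ATF6, a sensor of protein misfolding in the endoplasmic reticulum, and the antioxidant regulator NRF2, at a concentration that the labels give as 10 mM, a unit that could not be checked here. The vehicle group held 3 libraries from cells given DMSO for 16 h. No genetic change separated the groups, and nothing in the labels says that replicates came from separate cultures, so p-values may measure technical spread only.

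The data are 1 line per gene from the authors' own comparison, for which the submitters' processing notes name DESeq2, called the authors' deposited table below, so values of single libraries and their depth are not given here. Each line holds a mean normalized count over the libraries, a log2 fold change with its standard error (SE), and a p-value adjusted over 13597 genes. A gene was called when its adjusted p was under 0.05. The header does not name the numerator, and a positive value is read here as higher with AA147. Every direction below rests on that reading. Standard targets of the regulators that AA147 is known to act on point both ways: the NRF2 target Nqo1 lay at 0.93 and the ATF6 target Hspa5 at -0.80 per the authors' deposited table, a pair chosen after their values were seen. If the ratio were vehicle over AA147, the 11 positive members below would be lower with AA147 and the 1 negative member higher. Percent changes, their 95% intervals (1.96 SE on either side) and the group levels they imply were computed from the authors' mean, fold change and SE. Of the neuronal markers Rbfox3, Map2, Tubb3, Nefl, Nefm, Syp, Snap25, Syn1, Camk2a, Grin1, Slc17a7 and Prox1, 4 of 12 were listed per the authors' deposited table, and only Tubb3 and Syn1 had a mean of at least 100. Tubb3 was called positive at 0.43 and Syn1 was not called. All 6 fibroblast markers were listed, with a summed mean of 438966, and 5 of them (Col1a1, Col1a2, Col3a1, Dcn and Pdgfra) were called negative per the authors' deposited table. For the astrocyte, oligodendrocyte and microglial lists, 2 of 4, 2 of 4 and 0 of 4 were listed, with summed means of 955, 30.8 and 0, and the astrocyte marker Slc1a3 was called negative at -1.30 per the authors' deposited table. The part of such markers in the results below was not tested.

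Cytosolic chaperones form a relay. HSP70 proteins bind exposed stretches of unfolded chains in a cycle driven by ATP, J-domain proteins deliver the clients and start ATP hydrolysis, and exchange factors such as HSP110, BAG proteins and HSPBP1 let ADP and the client go. HSP90 and its cochaperones take over clients such as kinases and steroid receptors, while the barrel-shaped CCT complex folds actin and tubulin. The transcription factor HSF1 is held inactive by these chaperones in unstressed cells. After heat or other proteotoxic stress it forms trimers and binds heat shock elements, inverted repeats of the unit GAA, in the promoters of inducible chaperone genes.

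Matches to the heat shock element in the members' promoters are shown first, as sequence only. Promoter sequences of 59 of the 73 members came from RefSeq on build GRCm38.p6 and covered 250 bases before to 50 after each annotated start. Only sequence was read on this build, since the submitters' processing notes name mm9 for the counts. Both strands were searched for 3 units in a row (GAANNTTCNNGAA) and for any 2 units (GAANNTTC or TTCNNGAA, which overlap the longer form). A gene with several annotated starts was counted as holding a match if any of them did. For Cct2, Cct5, Dnaja1, Dnajb4 and Hspb6, another annotated start held none. Which start is used in these cells is not known. Each line below gives the 30 bases around a match, with the matched units in capitals. Hsph1, Chordc1 and Dnajb6 are the members with 3 or more units, Hspa1a, Hspa1b and Cct2 are called members with 2, and Bag3, Dnaja1 and Fkbp4 carry 2 and were not called.
Hsph1 (chr5:149636280-149636309, minus strand): tgctgcagaTTCTGGAAAGTTCtcctcagt
Chordc1 (chr9:18292259-18292288, plus strand): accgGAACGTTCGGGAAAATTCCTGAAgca
Dnajb6 (chr5:29735843-29735872, plus strand): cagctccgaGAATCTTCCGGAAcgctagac
Hspa1a (chr17:34972242-34972271, minus strand): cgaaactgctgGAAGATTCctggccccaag
Hspa1b (chr17:34959324-34959353, minus strand): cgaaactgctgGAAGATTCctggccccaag
Cct2 (chr10:117063399-117063428, minus strand): ccccaagtgaaGAAGTTTCtagcaggacct
Bag3 (chr7:128523603-128523632, plus strand): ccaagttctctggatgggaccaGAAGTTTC
Dnaja1 (chr4:40722333-40722362, plus strand): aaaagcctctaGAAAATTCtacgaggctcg
Fkbp4 (chr6:128438789-128438818, minus strand): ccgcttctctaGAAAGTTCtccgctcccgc

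The 3-unit form was found in 3 of the 59 members, 5.08%, against 179 of all 27025 genes with a promoter entry, 0.662%. Any 2 units were found in 14 members, 23.7%, against 17.0% of all genes. Of the 7 called positive members with a promoter entry, only Hsph1 held the 3-unit form, and 4 held any 2 units. The match in Chordc1 ran over 23 bases across its annotated start. The windows of Hspa1a and Hspa1b are the same letters, and their 250 upstream bases matched at 247 positions. These matches are descriptions of sequence and show no binding.

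Of the 73 members, 70 had an adjusted p. The members called were 11 positive and 1 negative, which is 17.1% of those tested, beside 20.2% of all genes tested per the authors' deposited table. The share called in either direction was therefore close to that of the whole table. By sign, 15.7% of members were called positive and 1.43% negative, beside 9.05% and 11.1% of all genes. The changes were small: called members had a median absolute log2 fold change of 0.29, against 0.35 for all called genes per the authors' deposited table. The median over all 73 members was 0.04 and over all 16472 genes 0.01. In bulk RNA, a shift in the mix of cells and a change in RNA per cell cannot be told apart.

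Abundant genes were called more often, so the members were also read against genes of like level. The 41 members whose mean reached 1000 had 9 called positive and 0 negative per the authors' deposited table, which is 22.0%, beside 28.4% of the 5895 genes at that level, 12.8% positive and 15.6% negative. At an unadjusted p under 0.05, 11 of these 41 members were positive and 0 negative, beside 1157 positive and 1222 negative of the 5895 genes. Of the 14 members with a mean of at least 10000, 4 were positive and 0 negative per the authors' deposited table, 28.6% in all. Among the 465 such genes 41.7% were called, 12.0% positive and 29.7% negative. At an unadjusted p under 0.05, 4 of the 14 members were positive and 0 negative, beside 69 positive and 169 negative of the 465 genes. From 1000 to 10000, 5 of 27 members (18.5%) were positive and 0 negative, beside 27.3% of all genes in either direction, 12.9% positive and 14.4% negative. Among the 25 members with a mean from 100 to 1000, 2 were positive and 1 negative, beside 18.1% of all genes, 8% positive and 10.1% negative.

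**Figure D1:**
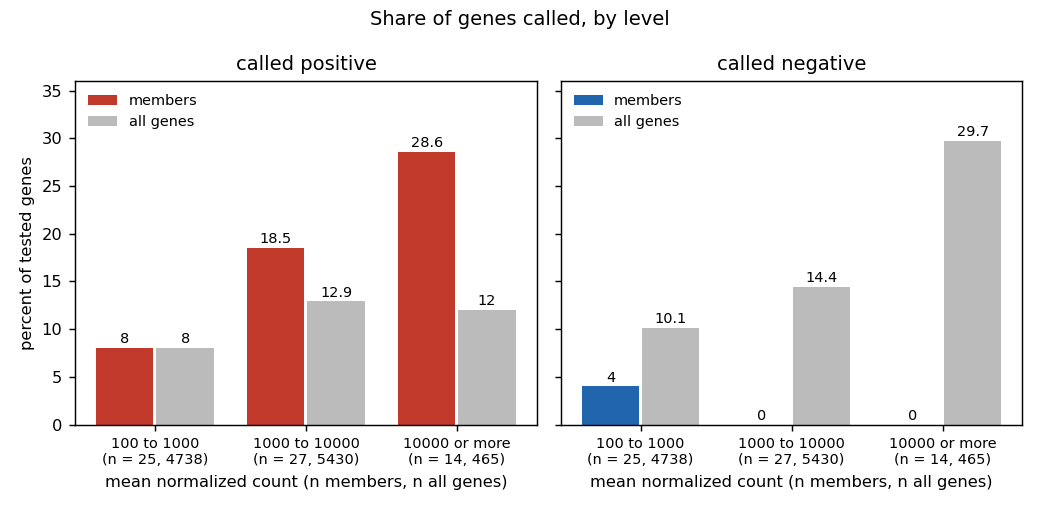
Percent of tested genes called positive (left) and negative (right) at an adjusted p under 0.05, for members (coloured bars) and all genes (grey bars) in 3 classes of mean normalized count, with the number of genes in each under the bars. Members of 10000 or more were called positive in 28.6% of cases and negative in 0, against 12.0% and 29.7% of all genes.

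**Figure D2:**
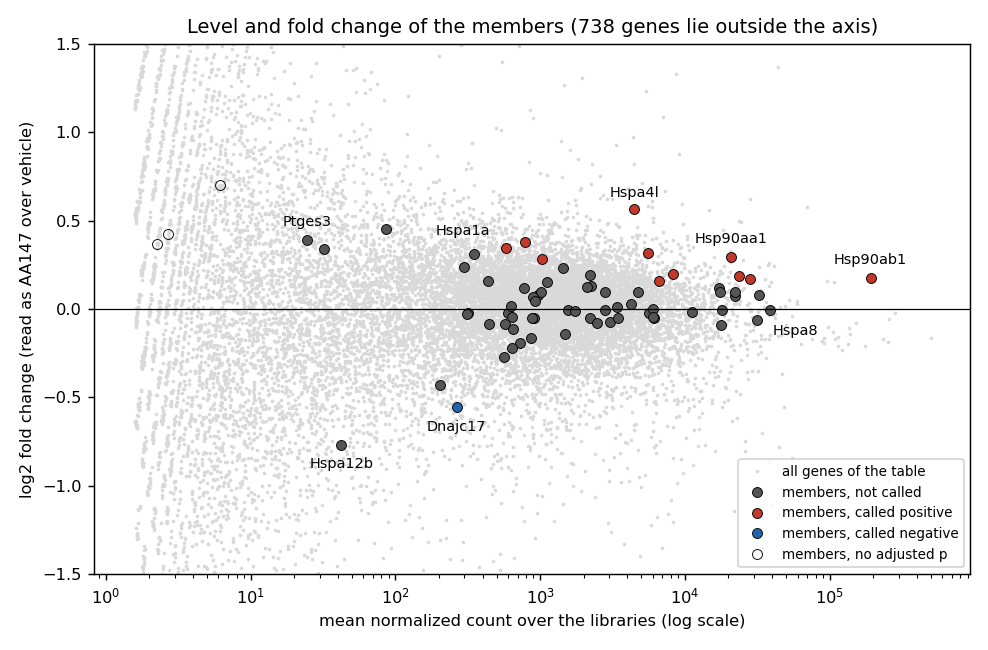
Log2 fold change (vertical axis) against mean normalized count (horizontal axis, log scale) for every gene of the table (pale dots) and the 73 members (circles, coloured by call; open circles have no adjusted p). The called members lie close to 0, with Hspa4l the highest at 0.56 and Dnajc17 the lowest at -0.56; 738 genes lie outside the vertical axis.

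The heat shock factors were all expressed, and 0 of 3 were called or had an unadjusted p under 0.05. Over all genes tested, 20.2% were called and 30.6% had an unadjusted p under 0.05, so 0 in a group of 3 says little. Hsf1, the main activator of the heat shock response, had a mean of 4265 and a log2 fold change of 0.03 (adjusted p 0.81, SE 0.066) per the authors' deposited table. Its implied level was 4220 with vehicle and 4311 with AA147, a change of 2.16% with an interval from -6.58% to 11.7%. Hsf2, which can form mixed trimers with HSF1, lay at 0.08 (SE 0.093), and Hsf4, best known from the lens, at 0.12 (SE 0.104) per the authors' deposited table. HSF1 activity is set largely at the protein level, which these data do not measure.

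HSP70 and HSP110 genes held the largest called change of the family. In this group 4 of 11 were called positive and 0 negative, with 2 negative (Hspa1l and Hspa12b) at an unadjusted p under 0.05. That is 36.4% positive, beside 9.05% positive and 11.1% negative of all genes. Hspa4l, an HSP110-type exchange factor also named OSP94, had the largest fold change of any called member, 0.56 (adjusted p 1.82e-12, SE 0.074), per the authors' deposited table. Its implied level rose from 3605 with vehicle to 5332 with AA147, 47.9% higher (interval 33.7% to 63.6%). By the size of its statistic it ranked 247 of 13597 genes, so 1.81% of genes lay above it. Hsph1, the HSP110 disaggregase partner of HSP70, rose by less, 14.7% (interval 4.36% to 26.0%), with a fold change of 0.20 (adjusted p 0.0263, SE 0.069) per the authors' deposited table. Hspa4, the third HSP110 gene, had a mean of 22016 (4525 per kilobase of transcript, against 1333 for Hsph1 and 465 for Hspa4l) and lay at 0.08 (adjusted p 0.419, SE 0.060) per the authors' deposited table. Transcript lengths came from GENCODE M39, and the gene models behind the authors' counts are not known, so levels per kilobase are rough.

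The stress-inducible HSP70 pair was positive as well. Hspa1b had a mean of 1025 with a fold change of 0.28 (adjusted p 0.00669, SE 0.084), and Hspa1a a mean of 582 and 0.35 (adjusted p 0.0254, SE 0.121), per the authors' deposited table. Implied levels were 925 and 1125 for Hspa1b and 513 and 652 for Hspa1a, changes of 21.5% (interval 8.43% to 36.2%) and 27.2% (interval 7.87% to 50.02%). The transcripts of the pair aligned to each other's locus at 99.3% identity, so how the authors' reads were split between them is uncertain and they are not separate evidence. Hspa1l, the testis-type gene beside them, was negative at -0.43 (SE 0.169) with an adjusted p of 0.0525 per the authors' deposited table, just outside the threshold. An antisense gene covers 1778 of its 2487 transcript bases, and the libraries were non-stranded, so reads of Hspa1l and the antisense gene cannot be told apart.

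Constitutive HSP70 did not follow the inducible pair past the threshold. Hspa8, the cognate HSP70 of unstressed cells, had the highest mean of the HSP70 genes, 38779, and a fold change of -0.004 (adjusted p 0.977, SE 0.062) per the authors' deposited table. The interval of its change ran from -8.33% to 8.45%. Whether Hspa8 and the inducible pair differed was not tested. Hspa8 has 6 other loci in assembly GRCm39 that match at least 50% of its transcript at 95% identity or more, so its value is uncertain too. Hspa14, which works at the ribosome, Hspa2 and Hspa12a all lay at -0.02 per the authors' deposited table, and Hspa12b, with a mean of 42.4, lay at -0.77 (adjusted p 0.103, SE 0.345).

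Both cytosolic HSP90 genes were called positive, and they included the gene with the highest count of the family. Hsp90ab1, the constitutive form, had a mean of 192212, which was 31.9% of the summed means of all 73 members. Its fold change was 0.18 (adjusted p 0.00919, SE 0.054) per the authors' deposited table, or 12.9% (interval 4.91% to 21.5%), from an implied 180551 with vehicle to 203872 with AA147. Hsp90aa1, the inducible form, with a mean of 20872, changed by 0.29 (adjusted p 1.04e-04, SE 0.065) per the authors' deposited table, which is 22.6% (interval 12.2% to 34.0%). Per kilobase of transcript, with the same limit on lengths as above, the mean level was 71110 for Hsp90ab1 and 5913 for Hsp90aa1. The transcript of Hsp90aa1 matched 2 other loci, the best at 99.5% identity.

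Of the 5 HSP90 cochaperone genes in the rule, 0 were called, beside 20.2% of all genes tested. An unadjusted p under 0.05, reached by 30.6% of all genes, was found for 1, Chordc1. That gene, which encodes an HSP90-binding zinc protein, lay at 0.23 (adjusted p 0.0561, SE 0.092) per the authors' deposited table, or 17.4% (interval 3.62% to 32.9%). Stip1, also known as HOP, which bridges HSP70 and HSP90, lay at 0.12 (adjusted p 0.170, SE 0.060) per the authors' deposited table. Ahsa1, the activator of the HSP90 ATPase, and Fkbp4, the immunophilin of steroid receptor complexes, lay at -0.05 (SE 0.071) and -0.02 (SE 0.064) per the authors' deposited table. Ptges3, the cochaperone p23, had a mean of only 24.7 and an SE of 0.45 per the authors' deposited table, so a change between -28.8% and 142% could not be told from none. Its transcript has 1 other locus at 99.5% identity, and whether that lowers its count was not tested.

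**Figure D3:**
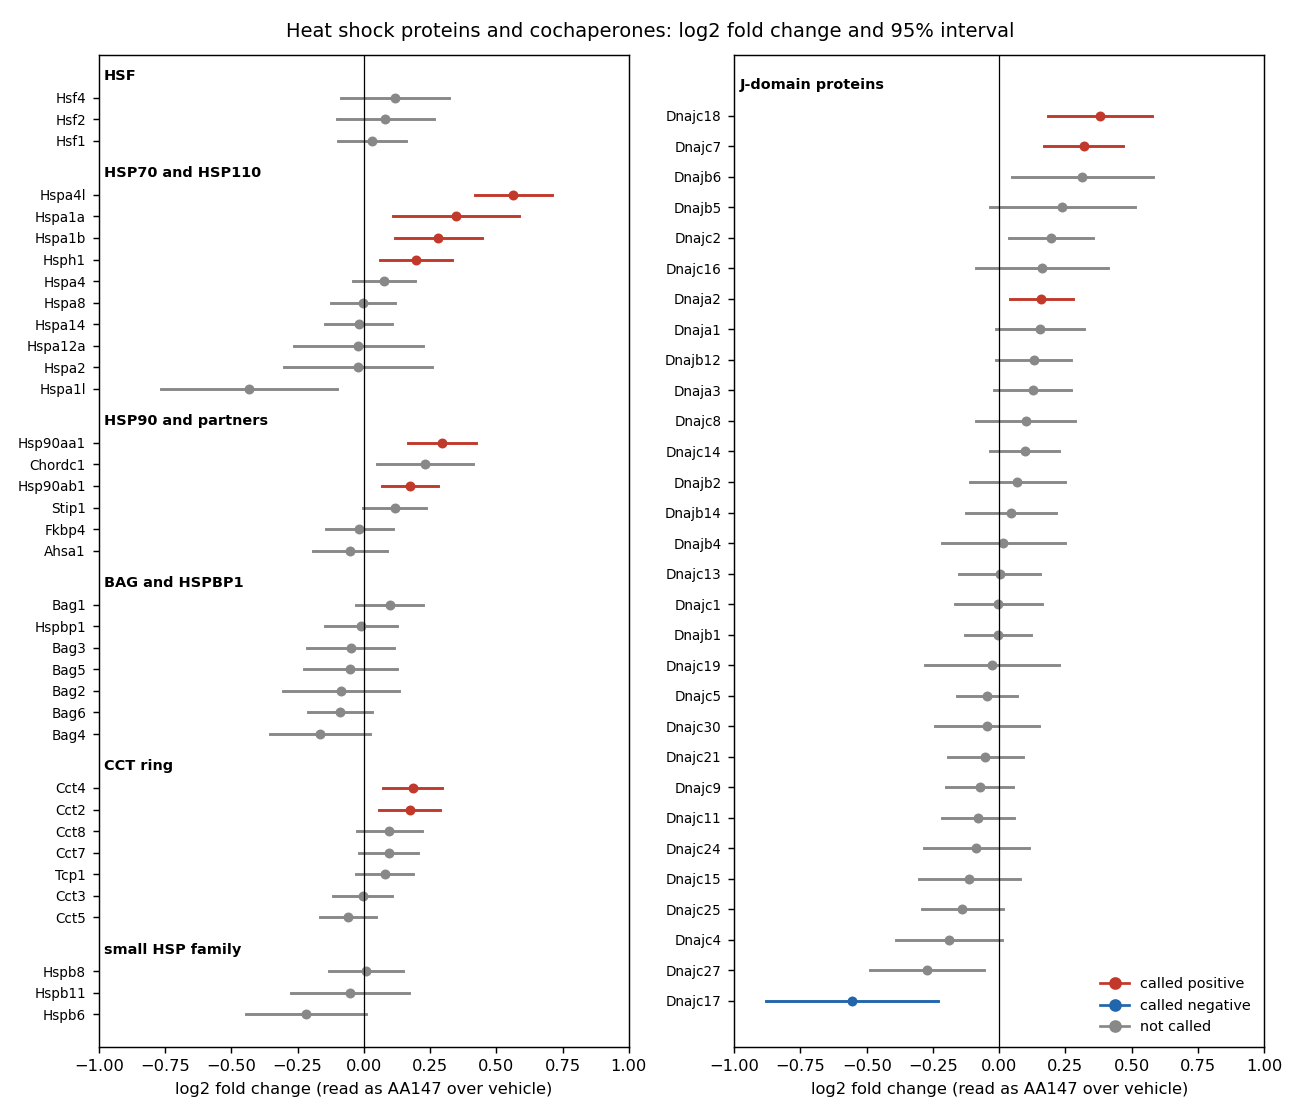
Log2 fold change (points) and 95% interval (lines) of the 66 members with a mean of at least 100, grouped by role and coloured by call (red called positive, blue called negative, grey not called). The called positive members are spread over the HSP70 and HSP110, HSP90, CCT and J-domain groups, and the heat shock factors, the BAG group and the small heat shock proteins have none.

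J-domain proteins form the widest group, with 33 members and 31 tested, of which 3 were called positive and 1 negative. That is 12.9%, below the 20.2% of all genes. Their means ran from 2.27 to 6622. Of the 15 members counted above as sitting in organelles or membranes, 14 were tested, with 1 called positive and 0 negative. Of the other 17 tested, which include the endosomal Dnajc13, 2 were called positive and 1 negative.

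Dnajc7, also called TPR2, which carries repeats that bind HSP70 and HSP90 besides its J domain, was the J-domain gene with the smallest adjusted p. Its fold change was 0.32 (adjusted p 3.43e-04, SE 0.076) at a mean of 5592 per the authors' deposited table, or 24.8% (interval 12.6% to 38.3%). Dnajc18, a membrane-anchored member, lay at 0.38 (adjusted p 0.00172, SE 0.101) at a mean of 791 per the authors' deposited table, or 30.2% (interval 13.5% to 49.3%). Dnaja2, a class A partner of HSP70 in refolding, passed narrowly at 0.16 (adjusted p 0.0470, SE 0.061) per the authors' deposited table, and was not called when the adjustment covered every gene with a p (adjusted p 0.0562) or when fold changes were centred on genes with a mean of at least 100 (adjusted p 0.0749).

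The 3 class A genes were all positive in value, at 0.16 for Dnaja2, 0.15 for Dnaja1 and 0.13 for the mitochondrial Dnaja3, with Dnaja2 alone called per the authors' deposited table. The canonical transcript of Dnaja1 shares 4754 of its 5573 bases with Smu1 on the opposite strand, which lay at 0.14 (adjusted p 0.106) per the authors' deposited table. The libraries were non-stranded, so reads of Dnaja1 and Smu1 cannot be told apart over these bases. In the class B group 0 of 7 tested members were called, and 1, Dnajb6, had an unadjusted p under 0.05. The shares over all genes tested were 20.2% and 30.6%. Dnajb1, the inducible HSP40 and a textbook HSF1 target, had a mean of 2784 with a fold change of -0.01 (adjusted p 0.972, SE 0.064) per the authors' deposited table, with an interval of its change from -8.62% to 8.67%. Dnajb6, a suppressor of aggregation, had the largest class B value among genes with a mean of at least 100, 0.31 (adjusted p 0.0882, SE 0.136), per the authors' deposited table. Its transcript matched 2 other loci, the best at 99.8% identity, so its value is uncertain.

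The only called negative member was Dnajc17, a nuclear J-domain protein linked to splicing, at -0.56 (adjusted p 0.00652, SE 0.165) and a mean of 266 per the authors' deposited table. Its implied level fell from 317 with vehicle to 215 with AA147, a change of -32.0% (interval -45.7% to -14.8%). Its transcript shares 211 of its 1111 bases with Zfyve19 on the opposite strand, which was called positive at 0.29 (adjusted p 0.0194) per the authors' deposited table, and it has 1 other locus at 96.7% identity. Dnajc27 at -0.27 (adjusted p 0.0633) and Dnajc2, the ribosome-bound zuotin homologue, at 0.19 (adjusted p 0.0676) lay just outside the threshold per the authors' deposited table. Dnajc13, an endosomal protein with the largest SE for its level among the members, 1.23 times that of genes with a like mean, lay at 0.002 (SE 0.078). Dnajc5, the cysteine string protein of synaptic vesicles, lay at -0.05 (SE 0.057) with a mean of 5991 per the authors' deposited table.

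The BAG group and HSPBP1 had 0 of 7 called, and 0 of 7 at an unadjusted p under 0.05, beside 20.2% and 30.6% of all genes tested. Bag6, which guides membrane proteins and misfolded chains, had the highest mean, 17638, and lay at -0.09 (adjusted p 0.341, SE 0.062) per the authors' deposited table. Bag3, the partner of HSPB8 in selective autophagy and a textbook HSF1 target, lay at -0.05 (adjusted p 0.753, SE 0.083) per the authors' deposited table, with an interval of its change from -13.7% to 8.22%. Bag1 at 0.10 (SE 0.064) was the only positive value of the group, and Bag2, Bag4, Bag5 and Hspbp1 lay at -0.09, -0.17, -0.05 and -0.01 per the authors' deposited table.

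The CCT ring, which is built from 8 different subunits in 1:1 proportion, had 2 of the 7 subunits in the rule called positive and 0 negative, 28.6%, beside 41.7% called and 12.0% called positive among all genes with a mean of at least 10000. Cct4 lay at 0.19 (adjusted p 0.0084, SE 0.057) and Cct2 at 0.17 (adjusted p 0.0204, SE 0.059) per the authors' deposited table, which are changes of 13.7% (interval 5.29% to 22.8%) and 12.7% (interval 4.08% to 22.0%). Cct6a, the eighth subunit, is not reached by the symbol rule and was also called positive, at 0.18 (adjusted p 0.00948, SE 0.056), per the authors' deposited table. Cct8, Cct7 and Tcp1, the CCT1 subunit, lay between 0.08 and 0.10 and were not called. Cct3 and Cct5 lay at -0.004 (SE 0.057) and -0.06 (SE 0.053) per the authors' deposited table.

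The ring was measured precisely, with means from 13435 to 32313 over its 8 subunits and a median SE of 0.057, and the smallest change called in it was 0.17. Intervals of the subunits overlapped in part: that of Cct5 ended at 3.16% and that of Cct4 began at 5.29%. Whether subunits differed from each other was not tested. Counting for each subunit the neighbour with the longest overlap, 3 on the opposite strand were called: Usp16 shares 579 transcript bases with Cct8 and was positive at 0.25, Acat3 shares 571 with Tcp1 and was negative at -0.48, and Psph shares 452 with Cct6a and was negative at -0.69, per the authors' deposited table.

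Small heat shock proteins, which hold unfolding proteins without ATP, had 0 of 4 tested members called, and 0 of 4 at an unadjusted p under 0.05. The shares over all genes tested were 20.2% and 30.6%. Hspb8, the partner of BAG3, had the highest mean, 3402, and lay at 0.01 (adjusted p 0.954, SE 0.071) per the authors' deposited table. Hspb6 lay at -0.22 (adjusted p 0.181, SE 0.116) and Hspb11 at -0.05 (SE 0.113) per the authors' deposited table. Hspb2 had a mean of 31.9 and an SE of 0.38. Hspb9, Dnajb7 and Dnajc28, which had means of 6.10, 2.69 and 2.27, had no adjusted p. Hspb1 and Cryab, the best known small heat shock genes, were not analysed here.

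Summed over the family, the means came to 602846, which was 1.96% of the summed means of the authors' deposited table. The implied sums were 580936 with vehicle and 624756 with AA147, a difference of 7.54%, of which no error can be given. Without Hsp90ab1 it was 5.12%. By role the sums differed by 12.3% for HSP90 and its cochaperones, 5.61% for the CCT ring, 5.09% for HSP70 and HSP110, 4.24% for J-domain proteins, 3.54% for the heat shock factors, -1.96% for small heat shock proteins and -3.47% for the BAG group. With the ratio turned, the same sums would differ by -10.9% for HSP90 and its cochaperones, -5.31% for the CCT ring and 3.60% for the BAG group.

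The members were then read by the heat shock element in their promoter window, as a description with no test. The window of 14 members, out of 54 that had a promoter entry and a mean of 100 or more, held at least 2 units, and 4 of these (28.6%) were called, all positive. Of the 40 without, 4 were called (10.0%), 3 positive and 1 negative. Hspa1a and Hspa1b, which share a window and are not separate evidence, are 2 of the 4 called members with units. Over all genes with a promoter entry and a mean of 100 or more, 22.8% of 1084 with at least 2 units and 23.9% of 6899 without were called. The median log2 fold change of the members was 0.08 with and -0.004 without. For the 1084 and 6899 genes it was 0.019 and 0.015. Hsph1, Chordc1 and Dnajb6, with 3 units, lay at 0.20, 0.23 and 0.31 per the authors' deposited table, and Hsph1 alone was called. Over all genes with a promoter entry and a mean of 100 or more, 45 held the 3-unit form, with a median of 0.0105. Of these, 22.2% were called, 11.1% positive and 11.1% negative. The 7938 genes without it had a median of 0.0155, and 23.8% were called. The 8 members with 2 units that were not called ran from -0.27 for Dnajc27 and -0.22 for Hspb6 to 0.15 for Dnaja1. Hspa4l, the largest change among called members, had no match in its window, which says only that these letters are not in it. Hsp90aa1, Hsp90ab1, Cct4 and Dnajc18 had no promoter entry.

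**Figure D4:**
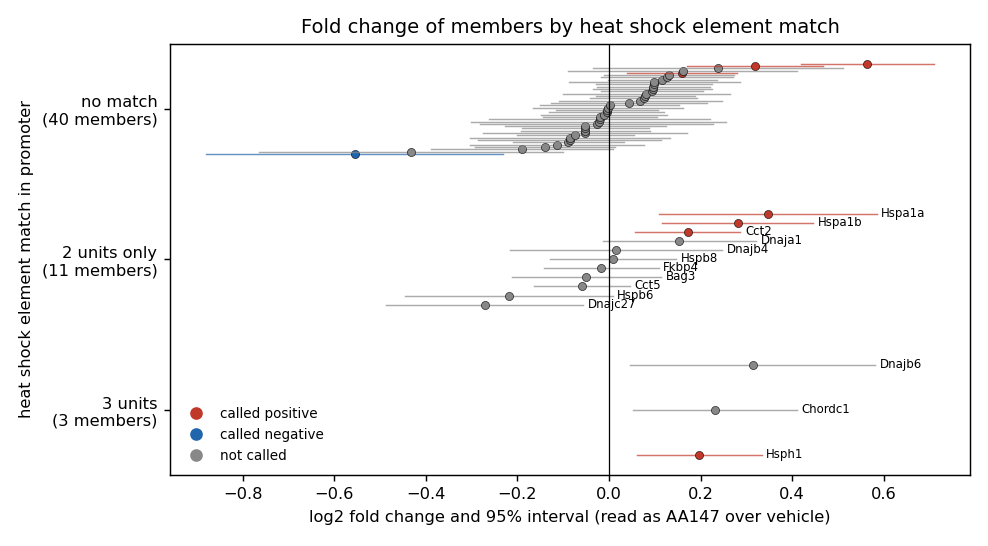
Log2 fold change (points) and 95% interval (lines) of 54 members with a promoter entry and a mean of at least 100, by the heat shock element match in their promoter (3 units, 2 units only, or no match). The 3 members with 3 units lie between 0.20 and 0.31, while members with 2 units run from -0.27 to 0.35.

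Further motifs were searched in the same windows. The antioxidant response core TGACNNNGC, which NRF2 binds in part of its targets, was in 13 of 59 members, 22.0%, beside 14% of all genes and 16.8% of those with an adjusted p. It was in 3 of the 7 called positive members with a promoter entry (Cct2, Dnaja2 and Hsph1) and in the 1 negative member, Dnajc17. Of the 51 members with an entry that were not called, 9 held it, 17.6%. The endoplasmic reticulum stress element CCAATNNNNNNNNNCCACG, bound by ATF6 together with NF-Y, was in 0 of 59 members, beside 0.137% of all genes.

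Partners of these chaperones outside the rule were read from a list of 49 genes, of which 48 were listed and 47 tested. Of these, 6 were called positive and 5 negative per the authors' deposited table, 23.4% in all, close to the 20.2% of all genes. Besides Cct6a, the positive genes were Pdcl at 0.45 (adjusted p 7.08e-06) and Tbcb at 0.30 (adjusted p 2.45e-04), which assist CCT and tubulin folding, Tomm34 at 0.30, a cochaperone of mitochondrial import, Clpb at 0.22, a mitochondrial disaggregase, and Ppid at 0.22, an HSP90 immunophilin, per the authors' deposited table. The negative genes were Serpinh1, the collagen chaperone HSP47, at -0.56 (adjusted p 3.09e-24), Sec63 at -0.35, the J-domain protein of the translocon, Tbca at -0.28, Pfdn5, a prefoldin subunit, at -0.26, and Fkbp8 at -0.17 per the authors' deposited table. Prefoldin, which hands chains to CCT, had 0 of 6 subunits called positive and 1, Pfdn4, positive at an unadjusted p under 0.05. The shares of all genes tested were 9.05% and 14.8%.

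Organelle chaperones that the rule leaves out are given for reference. Of 8 such genes, 0 were called positive and 2 negative per the authors' deposited table, 25.0% in all, close to the 20.2% of all genes tested. The 2 were Hspa5, the endoplasmic reticulum HSP70 BiP, at -0.80 (adjusted p 9.89e-37, SE 0.061), and its J-domain partner Dnajc3 at -0.21 (adjusted p 0.0183, SE 0.070). The mitochondrial HSP70 gene Hspa9 was not called and lay at 0.03 (SE 0.055) and the endoplasmic reticulum HSP90 gene Hsp90b1 at -0.09 (SE 0.059) per the authors' deposited table. The highest of the 8 was Hspa13, an HSP70 of the endoplasmic reticulum, at 0.12. The cytosolic counterparts Hspa8 and Hsp90ab1 lay at -0.004 and 0.18. Whether cytosolic and organelle genes differed was not tested.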

How the data were processed

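Non-stranded mRNA libraries were sequenced, per the labels' protocols. The authors deposited 1 table with 1 line per gene. Genome build mm9 and DESeq2, with no version, are named in the submitters' processing notes; the aligner and counter are not given in the sources used here. Per the file headers, the authors deposited a mean normalized count (a signal), a log2 fold change with SE, a statistic (a score equal to the fold change over its SE) and p-values, raw and adjusted.

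No test between libraries could be made, so the authors' calls were used. The adjusted p-values matched a Benjamini-Hochberg adjustment over 13597 genes. The depth of each library is unknown. Members, roles and lists were chosen with earlier results of these data known. Named were all called members, all heat shock factors, HSP90, BAG and CCT genes, the 2 most abundant HSP70, J-domain and small heat shock genes and the member with the largest relative SE; other genes, and the promoter motifs, were chosen after values were seen. Transcript lengths, overlaps and genome copies came from GENCODE M39 on GRCm39 with minimap2 2.31, and the scripts, tested on simulated data, used Python 3.11.15, pandas 2.3.3 and SciPy 1.17.1. Alternatives were other thresholds, adjustments, limits on the mean, centrings and subsets of members.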

Additional observations from a re-analysis of the deposited data

How the results depend on the processing

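No paired analysis was possible because values of single libraries were not part of the authors' table, and for that reason other normalizations, count filters, the replicate block and leaving out replicates were not run. The count of 11 members called positive became 7 when the adjusted p had to be under 0.01, 1 after Bonferroni adjustment, 4 when an absolute fold change of 0.3 (log2) was also required, 1 against a null range reaching 0.2 to each side of 0 (Hspa4l in that case and after Bonferroni), and 7 without Hspa1a, Hspa1b, Hspa1l, Hsp90aa1, Hsp90ab1 and Hspa8, each stricter or smaller by construction. At 0.01, 11.4% of members were called in either direction, beside 13.4% of all genes, and after Bonferroni 1.43% beside 5.69%. With the 0.3 requirement the shares were 7.14% and 12.7%, and with the null range 1.43% and 4.52%. Without the HSP70 and HSP90 genes just named, 7 of 64 members were positive, beside 9.02% of all genes. In either direction 12.5% were called, beside 20.1%. Leaving out the 10 members that match another locus, chosen after seeing the data, gave 8 positive and 0 negative, 13.3% beside 20.1% of all genes. The 1 member called negative became 0 after Bonferroni and with the null range, 2 when only genes of mean 100 or more were tested (adding Hspa1l, with Chordc1 added to the positive calls), 0 when only those of mean 1000 or more were (with Chordc1 and Dnajc2 added to the positive calls), and 3 when centred on the genes of mean 100 or more (adding Hspa1l and Dnajc27). Centring on genes of mean 10000 or more, chosen after seeing the data, moved the median of those genes from -0.05 to 0 and gave 15 positive and 1 negative members, with Chordc1, Stip1, Dnajb6 and Dnajc2 now called; over all genes 61.4% of calls were then positive, beside 44.9% as deposited and 40.3% when centred on the genes of mean 100 or more. With only genes of mean 100 or more tested, 21.2% of members were called, beside 24.9% of genes, and at 1000 or more 26.8% beside 30.8%. Centring on genes of mean 100 or more gave 18.6% of members beside 19.9% of genes, and of 10000 or more 22.9% beside 22.6%. The median over members ran from 0.01 to 0.09 over all alternatives. Of 37 named members, Cct2, Dnaja2, Hspa1a and Hsph1 lost their call at an adjusted p under 0.01. Under the 4 settings run, 0 of the 37 changed sign and were called, which was fixed in advance. The 0.01 limit and the adjustment over every gene leave fold changes as they are. The centrings moved them by only 0.01 and 0.05, less than any called value in size. Some members near 0 that were not called did change sign. Dnajc13 went from 0.0016 to -0.0115 when centred on genes of mean 100 or more.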

Other observations

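Among the 58 tested members that were not called, 39 had a 95% interval inside 0.3 on either side of no change on the log2 scale, and 19 had one that reached further. Exons of 35 of the 73 members overlap another gene in GENCODE M39, and 10 members match another locus at 95% identity or more over at least 50% of the transcript.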
